A study of Mus musculus with 2 samples.

Results

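The S100 proteins, galectins and annexins described here are 10 genes of fibro-adipogenic progenitors (FAPs), out of 44291 genes with a value in each of 2 RNA-seq libraries. They comprise the S100 genes S100a4, S100a6, S100a10, S100a11, S100a13 and S100a16, the galectin genes Lgals1 and Lgals3, and the annexin genes Anxa1 and Anxa2. The genes were taken by name, and they were chosen by measured values in so far as S100a4 is among the most abundant genes of both libraries, so the levels are given as a description. FAPs are mesenchymal cells found between muscle fibres that give rise to fat and to matrix-forming cells, and the primary mouse cells used here were wild type (WT). The PRP group was treated with platelet-rich plasma (PRP) and the control group with vehicle. Cells of both groups were then kept in adipogenic induction medium, which was DMEM containing insulin at 10 μg/ml, dexamethasone at 0.25 μM, IBMX at 0.5 mM and FBS at 20%. The labels say PRP, whereas the text of the study speaks of exosomes that were prepared from PRP of young donors, and the groups are named here as in the labels. Each group has 1 library, so each difference is a difference between 2 libraries, with no replicate check and no p-value.

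S100 proteins are small calcium sensors of the EF-hand class. They usually act as dimers that expose a binding surface when calcium rises inside the cell, and several of them are also released and act on receptors of other cells. Galectins are lectins that bind galactose-containing sugar chains on glycoproteins. Annexins bind acidic phospholipids of membranes in the presence of calcium, and some of them form complexes with S100 proteins, of which the pairs of S100A10 with annexin A2 and of S100A11 with annexin A1 are the best known. S100A4, also called fibroblast-specific protein, is widely used as a marker of fibroblasts and binds the heavy chain of non-muscle myosin IIA.

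All 6 S100 genes of the set belong to a family with a pair of EF-hands, of which the second is the canonical one, where a loop of 12 residues holds the calcium ion. The 36 coding bases of this loop are shown to make visible where S100a10 departs from the other S100 genes. The codons of places 1, 3, 5 and 12 of the loop, whose side chains help to hold calcium, are in capitals. The sequences are from the GENCODE M21 transcripts on GRCm38 (mm10), plus strand, each within a single coding exon, which is exon 4 in S100a13 and exon 3 in the others.
S100a4, chr3:90605785-90605820: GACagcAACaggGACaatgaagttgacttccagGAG
S100a6, chr3:90614233-90614268: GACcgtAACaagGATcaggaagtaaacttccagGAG
S100a11, chr3:93526037-93526072: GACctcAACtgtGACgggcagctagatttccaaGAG
S100a13, chr3:90524389-90524424: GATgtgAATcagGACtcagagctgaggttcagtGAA
S100a16, chr3:90542410-90542445: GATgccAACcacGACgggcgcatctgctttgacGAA
S100a10, chr3:93564288-93564323: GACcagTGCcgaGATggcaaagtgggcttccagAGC

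Each loop was located by a pattern with aspartate at places 1 and 5 and phenylalanine at place 10. Aspartate at places 1 and 5 of all 6 genes was therefore set by the search. Place 3 encodes asparagine and place 12 glutamate in S100a4, S100a6, S100a11, S100a13 and S100a16. S100a10 has cysteine at place 3 and serine at place 12. S100A10 is the S100 protein known to have lost calcium binding and to stay in the active shape without it.

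S100a4 (ENSMUSG00000001020) lies on chromosome 3 from 90603771 to 90606045, plus strand, and was the most abundant of the 10 genes. Its level was 2447 FPKM with PRP and 2559.9 FPKM in the control. FPKM counts fragments per length of exon and per total of assigned fragments. It held rank 7 of the 44291 genes in both libraries. The ratio of PRP over control was 0.956 (95% interval 0.940 to 0.972), a log2 difference of -0.065. Such an interval is an exact Clopper-Pearson interval of the read numbers recovered from the FPKM, and it covers counting error only. The difference was small but larger than the counting error of 57341 and 51038 recovered reads. In cultures sequenced in bulk, fewer cells that express a gene and less of its RNA per cell cannot be told apart.

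The value of S100a4 is shared with a second gene model. Gm42674, a protein-coding model on the same strand (chromosome 3, 90601904 to 90605885), has 446 exon bases, all of which also belong to S100a4 or to its neighbour S100a3. Of the 584 exon bases of S100a4, 51.7% lie in Gm42674. Gm42674 was listed at 3203 FPKM with PRP and 3348 FPKM in the control, with 57308 and 50971 recovered reads. These numbers are nearly those of S100a4, and the ratio of Gm42674 was 0.957. Nearly the same number of reads was thus listed under both models, as when the same reads are counted for each of them, and the counting options are not given in the sources used here. The level of Gm42674 is therefore not taken as a measurement separate from S100a4, and how many of these reads belong to either model is uncertain. Besides Gm42674, the genes closest to S100a4 in both libraries, by the distance of log2(FPKM + 1) over the 2 libraries, were Hsp90ab1, which encodes the chaperone HSP90-beta, at 2131 FPKM with PRP and 1992 FPKM in the control, and the gene model Gm37376, whose exons all lie within other gene models, at 2998 and 3432 FPKM.

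The bases before the start of S100a4 are shown because they stand in front of the most abundant gene of the set. The window of 250 bases is chr3:90603520-90603769 on the plus strand of GRCm38.p6, as given by RefSeq, and the capitals mark a TATA box (TATAAA) that begins 31 bases before the start.
S100a4 promoter: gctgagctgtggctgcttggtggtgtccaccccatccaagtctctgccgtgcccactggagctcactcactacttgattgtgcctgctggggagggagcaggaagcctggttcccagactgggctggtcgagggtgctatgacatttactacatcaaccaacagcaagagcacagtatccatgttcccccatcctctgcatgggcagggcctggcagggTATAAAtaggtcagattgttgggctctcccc

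Promoters of 8 of the 10 genes were in the RefSeq table, and S100a10 and Lgals1 were not matched. Each motif was searched on both strands. TATAAA was found in S100a4, in Anxa1 at 32 bases before the start and in Anxa2 at 17 bases before the start. It is found in 13% of the 27025 mouse promoters of the table. The AP-1 letters TGANTCA, found in 6.87% of promoters, occurred in S100a11, Anxa2 and window 2 of S100a16. CCAAT, found in 34.5% of promoters, occurred in S100a6 and Lgals3. The GC box letters GGGCGG, found in 32.9%, occurred in S100a11, Lgals3, Anxa2 and window 2 of S100a16. S100a16 has 2 windows in the table, and its window 1 held none of these motifs. The shares of promoters count only window 1 of each gene. No window of S100a13 held any of these motifs. These matches are descriptions of the letters only.

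The other 9 genes covered a wide range below S100a4. Lgals1, which encodes galectin-1, a lectin of many mesenchymal cells, was the next most abundant, at 709.9 FPKM with PRP and 695 FPKM in the control (rank 46 and rank 48). Anxa1 came after it at 416 and 321 FPKM. S100a11 and S100a6 followed, with 220.4 and 241.6 FPKM for S100a11 and 195.7 and 172.8 FPKM for S100a6. The lowest was S100a16, at 14.3 FPKM with PRP and 14.9 FPKM in the control, which is still above 92.3% and 92.6% of all listed genes. All 10 genes passed the filter of a mean FPKM of at least 1.

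The order of the 10 genes was the same in both libraries except in the middle. Lgals3 stood in place 7 and S100a13 in place 8 in the PRP library, and these places were exchanged in the control library. The counting intervals of neighbours in this order did not overlap in either library. The order in the middle depended on the gene length used, because FPKM divides by all exon bases of a gene. With the length of the principal transcript instead, the order was S100a6, Anxa2 and S100a11 in places 4, 5 and 6 in both libraries. S100a4, Lgals1 and Anxa1 stayed in the first 3 places. Lgals3 then stood in place 7 and S100a13 in place 8 in both libraries, at 75.2 and 74.7 FPKM in the control. The exchange of these genes between the libraries was therefore not seen with that length.

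**Figure D1:**
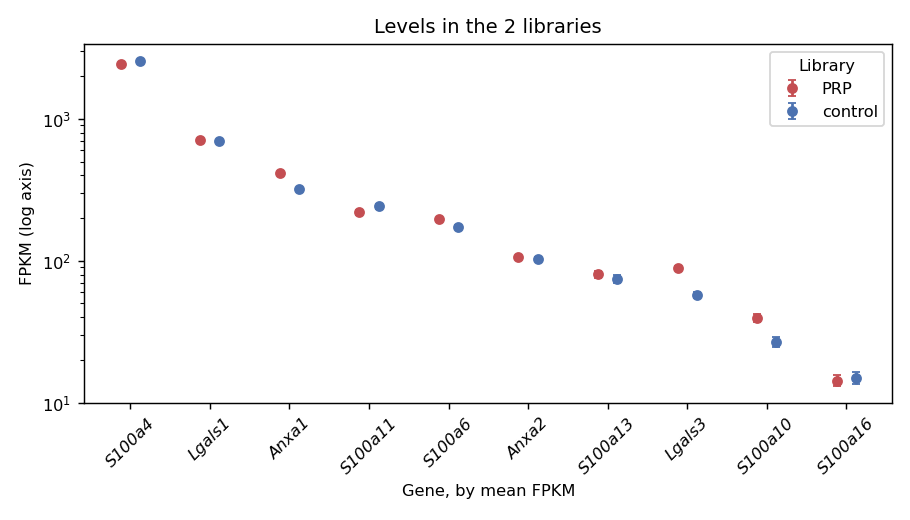
Levels of the 10 genes in FPKM (log axis) in the PRP library (red) and the control library (blue), ordered by mean FPKM, with bars for the 95% Poisson counting interval, most of which are smaller than the point. S100a4 stands above the other genes in both libraries, and the largest gaps between the libraries are those of Lgals3, S100a10 and Anxa1.

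Summed over the 10 genes the libraries were close, with 4318 FPKM with PRP and 4268 FPKM in the control, which is 1.26% of all FPKM in each. S100a4 alone made up 56.7% of the sum with PRP and 60.0% in the control. Among all listed S100 genes it made up 80.0% and 81.5%. Lgals1 made up 83.7% and 86.8% of the galectin sum, and Anxa1 36.3% and 33.0% of the annexin sum.

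Lgals3 had the largest difference of the 10 genes. It encodes galectin-3, the galectin that joins a sugar-binding domain to a long flexible tail and can form multimers. Lgals3 (ENSMUSG00000050335, chromosome 14, 47367751 to 47386160, plus strand) was at 88.5 FPKM with PRP and 57.5 FPKM in the control. The ratio was 1.54 (95% interval 1.45 to 1.63) and the log2 difference 0.61, on 6596 and 3645 recovered reads. It was the only member at least 1.5-fold higher on the log2(FPKM + 1) scale, against 6.15% of the 13401 genes tested. With a pseudocount of 5, or with centring on genes that average 100 FPKM or more, the count of such members was 0. No member was at least 1.5-fold lower, against 4.57% of the genes tested, and none passed 2-fold in either direction, against 2.00% higher and 0.828% lower. A count of 1 in 10 is near the share among all genes, so it says nothing particular about the set.

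S100a10 came next. S100a10 (ENSMUSG00000041959, chromosome 3, 93555080 to 93564643) was at 39.6 FPKM with PRP and 26.8 FPKM in the control, with a ratio of 1.48 (1.33 to 1.65) and a log2 difference of 0.55. On the log2(FPKM + 1) scale it fell just short of the 1.5-fold limit, which Lgals3 just passed. The partner of S100A10, annexin A2, which carries it to the inner face of the membrane, did not differ by more than counting error. Anxa2 (ENSMUSG00000032231, chromosome 9, 69453620 to 69491795) was at 106 FPKM with PRP and 103 FPKM in the control, a ratio of 1.03 (0.992 to 1.06). The level of S100a10 per level of Anxa2 was therefore 0.374 with PRP and 0.259 in the control. Like the order of levels, the size of this quotient depends on the gene lengths used for FPKM. Of the exon bases of Anxa2, 2.63% overlap the antisense gene Gm16144.

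Anxa1, which encodes a phospholipid-binding protein known for limiting inflammation and induced by glucocorticoids, was also higher in the PRP library. Anxa1 (ENSMUSG00000024659, chromosome 19, 20373428 to 20390944, minus strand) had 416 FPKM against 321 FPKM, a ratio of 1.29 (1.27 to 1.32) and a log2 difference of 0.37. Both media held the same concentration of the glucocorticoid dexamethasone, and the part of the glucocorticoid response in the Anxa1 difference was not tested. The S100 partner of annexin A1 differed in the opposite direction. S100a11 (ENSMUSG00000027907, chromosome 3, 93520488 to 93526287) had 220.4 FPKM with PRP and 241.6 FPKM in the control, a ratio of 0.913 (0.860 to 0.969). The level of S100a11 per level of Anxa1 was 0.530 with PRP and 0.751 in the control, and the size of this quotient also depends on the gene lengths.

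S100a6 encodes calcyclin, a calcium sensor of proliferating cells and fibroblasts. S100a6 (ENSMUSG00000001025, chromosome 3, 90612882 to 90624181) was at 195.7 FPKM with PRP and 172.8 FPKM in the control, a ratio of 1.13 (1.09 to 1.18). The remaining members did not differ by more than counting error. S100a13 (ENSMUSG00000042312, chromosome 3, 90514435 to 90524581), whose protein takes part in the release of FGF1, was at 80.5 and 74.7 FPKM, a ratio of 1.08 (0.986 to 1.18). S100a16 (ENSMUSG00000074457, chromosome 3, 90537254 to 90543151) had a ratio of 0.955 (0.836 to 1.09). Lgals1 (ENSMUSG00000068220, chromosome 15, 78926725 to 78930465) had a ratio of 1.02 (0.995 to 1.05). The ratio of Lgals1 to Lgals3 was 8.02 with PRP and 12.1 in the control, and its size depends on the gene lengths used.

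Counting error alone was exceeded by 6 of the 10 genes. The interval lay above 1 for S100a6, S100a10, Lgals3 and Anxa1, against 26.1% of the genes tested with whole reads, and below 1 for S100a4 and S100a11, against 26.1%. Abundant genes have narrow intervals, so the 6 members with a mean of at least 100 FPKM were also set beside the 533 genes at that level. Of these 6, none passed 1.5-fold, against 7.50% higher and 6.75% lower of the 533. The interval lay above 1 for 2 of them and below 1 for 2, against 45.8% and 40.2% of the 487 such genes with whole reads. The median log2 difference of the 10 genes was 0.071, with 7 above 0. The median of all genes tested was 0.0065, with 50.9% above 0, and that of the genes with a mean of at least 100 FPKM was 0.031. The small gaps between these medians cannot be set against replicate spread, which 1 library per group does not give.

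**Figure D2:**
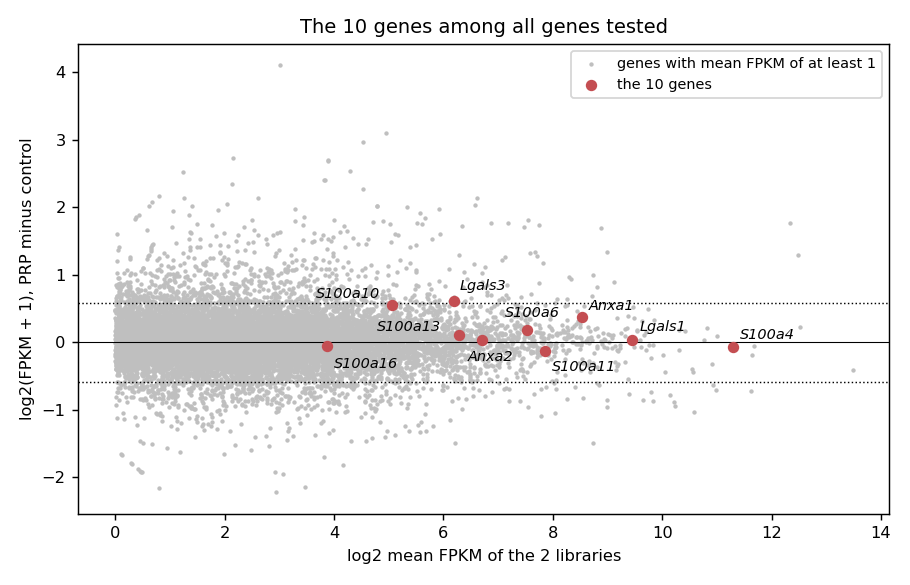
Difference of log2(FPKM + 1), PRP minus control, against the log2 of the mean FPKM, for the 13401 genes tested (grey) and the 10 genes (red), with dotted lines at 1.5-fold. S100a4 and Lgals1 sit far to the right close to 0, Lgals3 sits just above the upper dotted line and S100a10 just below it.

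The other S100 genes were below every member in both libraries, except S100a1, which stood above S100a10 and S100a16. Of 10 other S100 genes in the list, 6 passed the filter, 4 of them higher and 2 lower in the PRP library. S100a1, whose protein is best known as a calcium regulator of muscle cells, was the most abundant, at 44.2 FPKM with PRP and 39.0 FPKM in the control (ratio 1.13, 1.0 to 1.28). S100a5 had 8.02 and 4.95 FPKM (ratio 1.62, 1.09 to 2.55). S100a7a, a gene of the psoriasin type, had 4.54 FPKM with PRP and 1.08 FPKM in the control, a ratio of 4.19 (2.69 to 6.56). S100b, a glial S100 gene, went the other way at 0.739 and 2.29 FPKM, a ratio of 0.323 (0.188 to 0.535). These last genes rest on few reads, with 251 and 51 for S100a7a and 44 and 116 for S100b.

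S100a3 was at 2.06 FPKM with PRP and 0.516 FPKM in the control, a ratio of 4.0 (2.49 to 6.34). This interval uses the smallest read numbers that the ratio allows, 221 and 47, because no whole reads were recovered, and S100a3 shares exon bases with Gm42674. S100a8 and S100a9 encode the subunits of calprotectin, the abundant S100 protein of neutrophils and monocytes. S100a8 had 47 recovered reads with PRP and 2 in the control, which gives 1.69 and 0.0844 FPKM and a ratio of 20.0 (3.33 to 840). S100a9 had 0.859 and 1.23 FPKM and a ratio of 0.696, with an interval from 0.255 to 1.85 that included 1. Neither gene of calprotectin reached 2 FPKM in either library. The neutrophil markers Ly6g, Mpo and Elane summed to 0.130 FPKM with PRP and 0 in the control, with Ly6g at 0 in both. S100a14 and S100g were below 1 FPKM in both libraries, and S100z was listed at 0.

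The S100 genes of chromosome 3 stand in a row. From S100a1 to S100a9, 11 S100 genes of the lists lie within 185 kb (90511034 to 90695721), and S100a11 and S100a10 lie further along the chromosome. Neighbours differed widely in level, since S100a4 at 2447 FPKM stands between S100a3 at 2.06 FPKM and S100a5 at 8.02 FPKM in the PRP library. Of the 11 genes, 8 had a ratio above 1. The interval lay above 1 for 6, below 1 for S100a4 alone and included 1 for 4, beside 26.1% above and 26.1% below among all genes tested with whole reads. S100a8 and S100a14 of this row did not pass the filter, and S100a3 had no whole reads. The genes of the row with the largest ratios were also among its least abundant, and their intervals were wide.

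**Figure D3:**
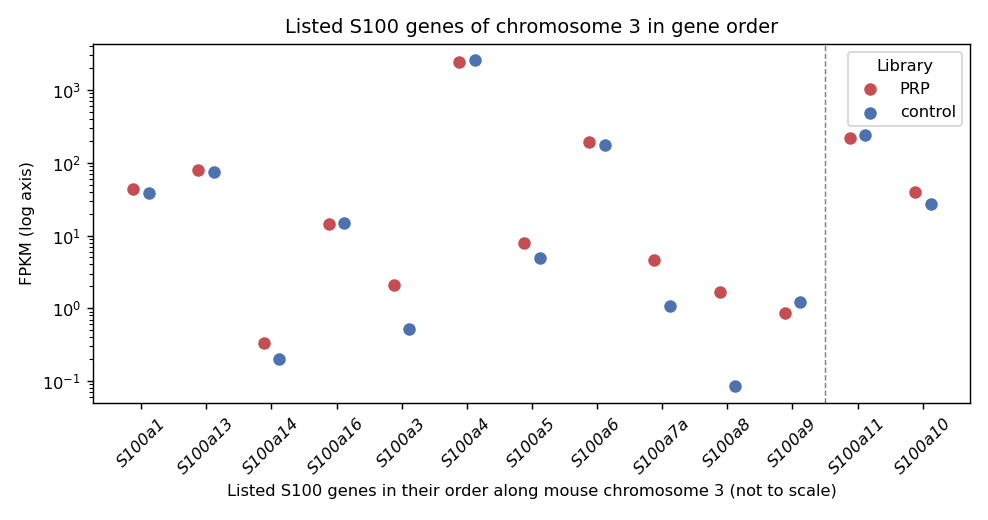
Levels in FPKM (log axis) of the 13 S100 genes of the lists on mouse chromosome 3 in the PRP library (red) and the control library (blue), in gene order and not to scale, with a dashed line between the row of 11 genes and the more distant S100a11 and S100a10. S100a4 and S100a6 stand far above the genes next to them, and S100a3, S100a7a and S100a8 show the widest gaps between the libraries.

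Among the other galectins, 4 of the 8 listed genes passed the filter. Lgals9, the galectin with paired sugar-binding domains known from immune regulation, was at 25.4 FPKM with PRP and 21.7 FPKM in the control (ratio 1.17, 1.07 to 1.28). Lgals8 was at 18.8 and 18.6 FPKM (ratio 1.01, 0.933 to 1.09). Lgalsl, a galectin-like gene, was lower in the PRP library at 3.26 and 5.47 FPKM (ratio 0.595, 0.508 to 0.698). Lgals2 had 0.842 and 1.68 FPKM, and its interval from 0.205 to 1.16 included 1. Lgals4, Lgals7 and Lgals12 were below 1 FPKM in both libraries, and Grifin was listed at 0.

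Anxa5 and Anxa3 were more abundant than Anxa2, and the other annexins outside the set were lower. Anxa5, the annexin used to stain exposed phosphatidylserine, was at 353 FPKM with PRP and 334 FPKM in the control (ratio 1.06, 1.03 to 1.08). Anxa3 was at 194 and 132 FPKM, and its ratio of 1.47 (1.43 to 1.51) exceeded that of Anxa1. Anxa6 (37.8 and 41.9 FPKM, ratio 0.902, 0.849 to 0.958) and Anxa4 (12.4 and 13.6 FPKM, ratio 0.915, 0.841 to 0.995) were slightly lower. The intervals of Anxa7, Anxa8 and Anxa11, at 5.06 to 14.1 FPKM, included 1. Anxa9 and Anxa13 were below 1 FPKM and Anxa10 was listed at 0. Of the 7 other annexins tested, 4 were higher and 3 lower, with a median log2 difference of 0.0083.

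**Figure D4:**
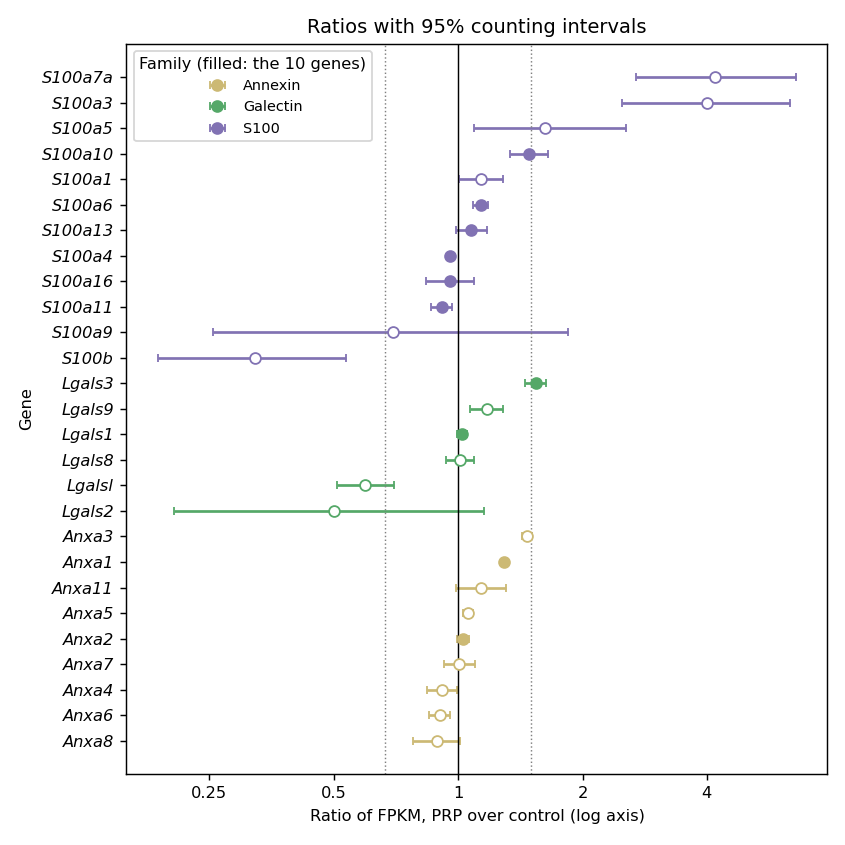
Ratio of FPKM, PRP over control (log axis), of each tested S100, galectin and annexin gene, with bars for the 95% counting interval and dotted lines at 1.5-fold in each direction. Filled points are the 10 genes, whose ratios lie between 0.913 and 1.54, and open points are the other family genes, of which S100a7a, S100a3 and S100b lie farthest from 1.

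The receptors and partners of these proteins were measured in the same libraries. Of 8 receptor genes listed, 4 passed the filter. Nrp1, which encodes neuropilin-1, a glycoprotein bound by galectin-1, was at 6.51 FPKM with PRP and 8.22 FPKM in the control (ratio 0.792, 0.733 to 0.855). Tlr4, a receptor of calprotectin, was at 4.08 and 3.38 FPKM (1.21, 1.05 to 1.40). Itgb1, which encodes the integrin beta-1 chain that galectins bind, was at 244 and 253 FPKM (0.966, 0.946 to 0.986). The receptors below the filter, named after their values were seen, were Ager, Mcam, Fpr1 and Fpr2. Ager encodes RAGE, the receptor of several S100 proteins, and was at 1.02 and 0.547 FPKM. Fpr1 and Fpr2 encode formyl peptide receptors, to which annexin A1 binds, and did not exceed 0.151 FPKM in either library.

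Of 18 genes of binding partners, 14 passed the filter, with 4 higher and 10 lower in the PRP library and a median log2 difference of -0.11. Myh10, which encodes non-muscle myosin IIB, was at 35.7 FPKM with PRP and 54.8 FPKM in the control (ratio 0.651, 0.632 to 0.671). Lamp2, a lysosomal membrane glycoprotein that galectins bind, was at 12.4 and 16.2 FPKM (0.765, 0.723 to 0.808). Hltf, a DNA helicase-like factor, was at 6.19 and 8.14 FPKM (0.760, 0.687 to 0.841). Myh9 and Ahnak were chosen after their values were seen. Myh9, which encodes the myosin IIA chain that S100A4 binds, was at 568 and 529 FPKM (1.07, 1.07 to 1.08). Ahnak, which encodes the large scaffold bound by S100A10 with annexin A2, was at 48.0 and 56.9 FPKM (0.843, 0.827 to 0.860).

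Annexins and S100A11 take part in resealing the plasma membrane, so genes of membrane repair were also listed. Of 13 such genes, 12 passed the filter, 5 higher and 7 lower, and the median log2 difference was -0.061. Cav1, which encodes the caveolar coat protein caveolin-1, was at 13.5 FPKM with PRP and 8.90 FPKM in the control (ratio 1.52, 1.36 to 1.69). Dysf, which encodes the repair protein dysferlin, was at 3.68 and 5.51 FPKM (0.668, 0.601 to 0.744). Capn1, which encodes calpain-1, was at 4.48 and 6.41 FPKM (0.699, 0.597 to 0.815). No whole reads were recovered for Capn1, so its interval uses the smallest read numbers that the ratio allows, 601 and 732.

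Among other calcium-binding EF-hand genes, all 13 that passed the filter, of 17 listed, were lower in the PRP library. The interval lay below 1 for 11 of them, against 26.1% of all genes tested with whole reads and 40.2% of those with a mean of at least 100 FPKM, and the median log2 difference was -0.18. Calu, which encodes calumenin of the secretory pathway, was at 357 FPKM with PRP and 544 FPKM in the control (ratio 0.657, 0.648 to 0.666). Hpcal1, a neuronal-type calcium sensor gene, was at 1.82 and 3.54 FPKM (0.515, 0.371 to 0.716). Rcn3, which encodes a reticulocalbin of the endoplasmic reticulum, was at 78.2 and 101 FPKM (0.773, 0.733 to 0.815). The S100 members, which belong to the same EF-hand class, were divided, with 3 higher and 3 lower.

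The marker genes of the cells were examined beside these values. All 8 FAP and fibroblast markers (Pdgfra, Ly6a, Dcn, Col1a1, Col3a1, Cd34, Thy1 and Vim) were detected in both libraries, which fits the label of the cells, and their summed level was 986 FPKM with PRP and 1203 FPKM in the control. All 8 were lower in the PRP library with intervals below 1, from a ratio of 0.501 for Col3a1 to 0.973 for Vim. An interval below 1 was found for 26.1% of all genes tested with whole reads and 40.2% of those with a mean of at least 100 FPKM. S100a4, at 0.956, was lower as well and lay near the upper end of the wide range of these marker ratios. Of the 6 macrophage markers, Adgre1 and Ptprc did not exceed 0.0543 FPKM, Csf1r and Itgam stayed below 1 FPKM, Cd68 was at 4.56 and 2.31 FPKM and Lyz2 at 4.91 and 7.57 FPKM, and the list summed to 10.3 and 10.6 FPKM. Lgals3 is also strongly expressed in macrophages. Cd68 was higher with PRP (ratio 1.98, 1.39 to 2.79), as Lgals3 was, and Lyz2 was lower (0.648, 0.514 to 0.822). The part of macrophages in the Lgals3 difference was not tested.

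Endothelial markers summed to 4.51 FPKM with PRP and 1.64 FPKM in the control, nearly all of it Kdr at 4.23 and 1.5 FPKM, with Cdh5 at 0.0949 and 0.0976 FPKM. The platelet markers Pf4, Ppbp and Itga2b summed to 0.636 and 0.365 FPKM, with Ppbp at 0. The myogenic markers Pax7, Myod1 and Myog summed to 0 and 0.0315 FPKM. Schwann cell markers summed to 0.409 and 0.322 FPKM and the keratin genes Krt5 and Krt14 to 3.04 and 3.41 FPKM. Adipocyte markers summed to 48.1 FPKM with PRP and 41.2 FPKM in the control, mostly Fabp4 at 40.7 and 33.6 FPKM. Adipoq was at 5.49 and 5.22 FPKM and Cidec at 0.242 and 0.237 FPKM. Plin1 went the other way at 1.73 and 2.10 FPKM (ratio 0.823, 0.661 to 1.03). Among the adipocyte markers, only the interval of Fabp4 did not include 1. The part of any of these cell types in the values of the 10 genes was not tested.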

How the data were processed

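RNA-seq was performed on 1 PRP and 1 control culture of FAPs, which the study sorted from mouse hind-limb muscle. Per the labels, RNA came from a TRIzol extraction and was made into stranded mRNA libraries. Per the submitters' processing notes, fastp 0.23.4, STAR 2.5.3a and featureCounts were used with the build mm10. The deposited values are FPKM per gene, as computed by the authors. The annotation release and the strand setting of the counting are not given in the sources used here.

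FPKM multiplied by the exon length of GENCODE M21 gave whole reads within 0.001 for 93.7% of genes, and the assigned reads totalled 40120843 (PRP) and 34139741 (control). M21 held 41492 of the 44291 genes. Even numbers made up 79.3% and 80.3% of read numbers up to 8, as when mates are counted separately, so intervals (Clopper-Pearson for ratios, exact Poisson for levels, 95%) were computed on reads divided by 2. They cover counting error only and take no account of PCR duplicates. Reads served for depth and intervals alone, and no count test was run.

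Differences are log2(FPKM + 1), PRP minus control, which understates the change of low genes. The 13401 genes whose mean FPKM reached 1 were tested, and a gene was called past 1.5-fold. The members, the 7 gene lists beside them and the markers were chosen with earlier results of these data known. Named were all members, the family genes, the markers, the 3 genes nearest to S100a4 in level and, in each other list, the 3 tested genes of largest absolute difference. Alternatives were a filter at 5 or none, pseudocounts of 0.1 and 5, rescaling to a common sum with or without mitochondrial and the 50 most abundant genes, centring, a 2-fold threshold, leaving out genes that share 50% of their exon length and intervals on undivided reads. The tools were Python 3.11.15, Biopython 1.88, NumPy 2.4.6, SciPy 1.17.1, pandas 2.3.3 and matplotlib 3.10.9. The procedures were tested on simulated data.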

Additional observations from a re-analysis of the deposited data

How the results depend on the processing

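The number of members at least 1.5-fold higher was 1 (Lgals3) as reported and 0 with a pseudocount of 5, with centring on genes that average 100 FPKM or more, and with a 2-fold threshold. It stayed at 1 under the other alternatives run, and no member was 1.5-fold lower under any of them. The median log2 difference of the members lay between 0.039 and 0.071. The log2 difference of Lgals3 lay between 0.58 and 0.62, that of S100a10 between 0.49 and 0.56, that of Anxa1 between 0.34 and 0.37, and that of S100a4 between -0.098 and -0.065. The value of Lgals1, which was not called, lay between -0.0027 and 0.030 and so changed sign with the scaling. With intervals on undivided reads, those of S100a13, Lgals1 and Anxa2 no longer included 1. The order of levels under the length of the principal transcript was an alternative chosen after seeing the data. No paired analysis was possible because there was 1 library in either group. Depth limits the low family genes, such as S100a8 with 2 reads in the control library, and the members whose intervals include 1 or depend on how reads are counted. With 1 library per group, the spread between cultures is unknown for every gene.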

Other observations

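Related gene models were at low levels beside the members. Lgals1-ps2, a transcribed processed pseudogene of Lgals1 (chromosome 15, 79255574 to 79256092), was at 1.06 FPKM with PRP and 0.564 FPKM in the control, on 22 and 10 recovered reads. S100a11-ps had 2 reads with PRP and 0 in the control. The parent genes Lgals1 and S100a11 had 21433 and 4214 reads in the control library. S100a2, a further S100 gene of chromosome 3 that was outside the list, was at 0.109 FPKM with PRP and 0.0226 FPKM in the control. Anxa11os, antisense to Anxa11, had 8 and 12 reads.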
